A study of Nematostella vectensis with 15 samples.

Results

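The warm step from 20 to 25 °C was examined in *Nematostella*, with 5 libraries from polyps cultured at 25 °C set against 5 from polyps cultured at 20 °C. These 10 of the 15 libraries of the series were chosen by the culture temperature that the labels give, and each library was the sum of its 2 columns of counts. The polyps of both groups were acclimated adult females of 1 strain (F1 offspring of the CH2XCH6 cross), held at 16‰ salinity, and the tissue is labelled as the mesenteric body portion, whereas the study's methods name the adult body column for the DNA extracted with the same kit. The remaining 5 libraries came from the same kind of polyps at 15 °C, and they entered the fit only to share the estimate of the spread and to place the warm step beside the cold one. Polyadenylated RNA was sequenced from stranded libraries, and the deposited values are fragment counts per gene model. Nothing in the labels says whether polyps of 1 temperature were housed or sampled together, so temperature and housing cannot be told apart, and the p-values measure the spread between these libraries only.

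*Nematostella vectensis* is a burrowing sea anemone of estuaries, where water temperature changes with season and tide. Its body temperature follows that of the water, and lasting changes in temperature are met in ectotherms by acclimation, in which the amounts of many transcripts are reset over days to weeks. The mesenteries are folds of the inner body wall that carry the gonads, digestive and secretory cells, and retractor muscle. The body column also includes the outer body wall, and which parts entered the RNA was not checked here. Either tissue mixes several cell types, and in such bulk samples fewer cells of a type and less RNA per cell cannot be told apart. The deposited identifiers are not paired with gene names in the tables used here (0 of 27527 matched), so the labelled tissue was not checked against its markers and the changed genes are described by their levels, structure, and position.

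Total counts of the 10 libraries ran from 8510055 to 22160961, with a median of 14234219 at 20 °C and 11095025 at 25 °C. At these totals a count of 0 allows up to 3 counts, which is between 0.135 and 0.353 CPM (counts scaled to a common library total), from counting error only. Total count, number of expressed genes, the share of counts in the 10 most abundant genes, and the normalization factor were each compared between the temperatures by a two-sided exact permutation test of 5 against 5 libraries. None of the 4 passed the threshold, with the smallest adjusted p (0.730) for the number of expressed genes, which was 22201 ± 327 at 25 °C and 22489 ± 271 at 20 °C (SD, n = 5 each, higher mean at 20 °C, exact p = 0.183). The smallest p that such splits allow is 0.00794. On the first principal component of the 500 most variable genes, which held 43.8% of their variance, the 20 °C libraries lay between -18.25 and -0.32 and the 25 °C libraries between -0.02 and 13.91. The groups did not overlap, although replicate 4 of the 25 °C libraries, at -0.02, lay next to the 20 °C group and was the highest library on the second component, at 17.39.

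More genes fell than rose at 25 °C. Of 17818 gene models tested, 655 changed between the temperatures (3.68% of those tested). Of these, 203 were higher at 25 °C (1.14%) and 452 were lower (2.54%), so 69.0% of the changed genes fell. The test was the quasi-likelihood F-test of edgeR with Benjamini-Hochberg adjustment over all genes tested, at an adjusted p under 0.05, and 3050 genes had an unadjusted p under 0.05. The balance of directions differed between fits. An offset that removes each library's own trend of level with exon length gave 272 genes higher and 355 lower, or 56.6% lower. The same offset with a replicate block gave 286 and 409. The offset alone also moved the median log2 fold change over all genes tested, from -0.01 to 0.03. The share that fell was 61.5% with upper-quartile normalization, 61.9% in a fit of only the 10 libraries compared, and 60.9% in run 2 alone, and the cause of these shifts was not tested. The count was also sensitive to single libraries. It was 426 without replicate 4 and 421 without replicate 5 of the 20 °C group, and 433 without replicate 2 and 399 without replicate 5 of the 25 °C group. Genes called higher numbered 131 and 120 without replicates 2 and 5 at 20 °C, and 134, 132, and 109 without replicates 1, 2, and 5 at 25 °C. Genes called lower numbered 284 and 301 without replicates 4 and 5 at 20 °C, and 301 and 290 without replicates 2 and 5 at 25 °C. With each of the 10 libraries left out, 82 of the 203 risers and 224 of the 452 fallers were called in all 10 fits. None of the 655 genes changed sign, which was unlikely for genes chosen by their difference in these same libraries.

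Most changes were modest, and the larger ones were mainly falls. The risers had a median log2 fold change of 0.61 (1.53-fold), with quartiles of 0.48 and 0.81. The fallers had a median of -0.77, or 1.71-fold lower. A change of at least 1 on the log2 scale was reached by 33 risers (16.3%) and 144 fallers (31.9%), and a change of at least 2 by 1 riser and 24 fallers. Among all genes tested, called or not, 858 were at least 1.5-fold lower and 293 at least 1.5-fold higher at 25 °C. The median log2 fold change over all of them was -0.01. Levels are relative to scaled library totals, so a median near 0 does not show that the typical gene held its level. Every 25 °C library lay above every 20 °C library in 165 of the 203 risers, where 2.30% of all genes tested had that order. Every 25 °C library lay below in 347 of the 452 fallers, against 3.69% of all genes tested. The called genes were chosen by their difference in these same libraries, so this separation is only a description.

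**Figure D1:**
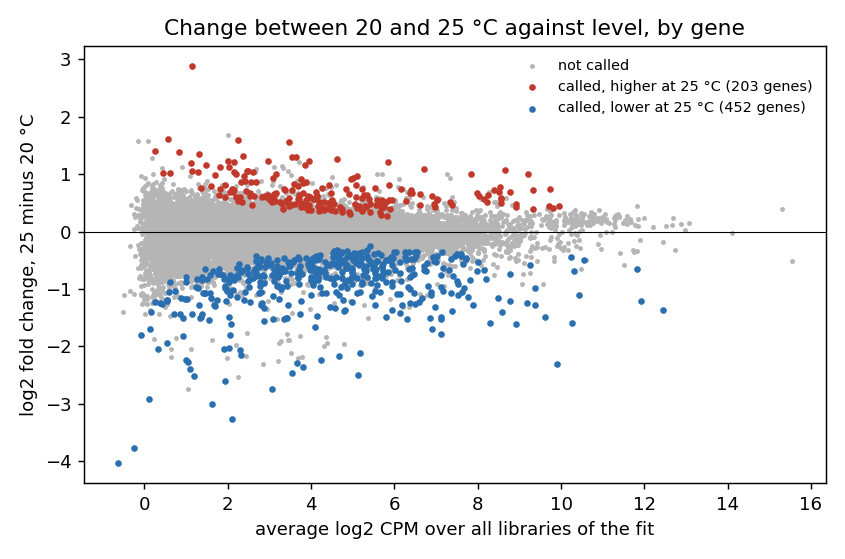
Log2 fold change at 25 °C minus 20 °C (vertical axis) against the average log2 CPM (horizontal axis) for the 17818 gene models tested, with the 203 called higher in red, the 452 called lower in blue, and the rest in gray. Called genes lie across the range of levels, and changes beyond 2 on the log2 scale are 24 falls and 1 rise.

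Measured as a share of all counts, the risers took up more of the library and the fallers less at 25 °C. These shares follow from how the genes were chosen and are given as a description. The 203 risers held 1.34 to 1.501% of the counts in the 20 °C libraries (median 1.38%) and 2.01 to 2.30% in the 25 °C libraries (median 2.20%). The 452 fallers held 4.97 to 5.47% at 20 °C (median 5.39%) and 2.62 to 2.95% at 25 °C (median 2.76%). At 15 °C, in libraries that did not choose the genes by this contrast, the risers held 1.11 to 1.25% and the fallers 4.47 to 5.14%. For the risers the 15 °C range was below that at 20 °C, while for the fallers the ranges at 15 and 20 °C overlapped and lay above that at 25 °C. These are shares of the unscaled library total. The 10 most abundant genes held 17.2 to 20.1% of it at 15 °C and 12.7 to 16.2% at 20 °C. The part of this in the risers' lower share at 15 °C was not tested. A few genes carried much of the fallers' total, since the 5 most abundant held 37.3% of it at 20 °C and 35.0% at 25 °C. In the risers the 5 most abundant held 27.9 and 26.2%.

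**Figure D2:**
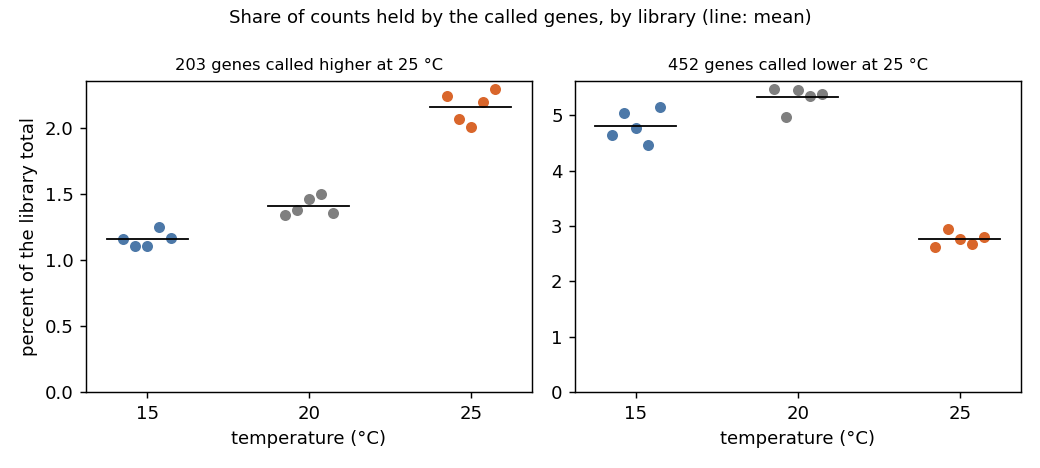
Percent of each library's counts held by the 203 genes called higher at 25 °C (left) and the 452 called lower (right), with 1 point for each of the 5 libraries at 15, 20, and 25 °C and a line at the mean. The risers' share is 2.01 to 2.30% at 25 °C against 1.34 to 1.501% at 20 °C, and the fallers' share 2.62 to 2.95% against 4.97 to 5.47%.

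The 2 largest rises and the 2 largest falls, among called genes averaging 0 or more in log2 CPM whose libraries did not overlap, are named here, all of them JGI gene models. NEMVEDRAFT_v1g238000.EDO49465, a single-exon model of 1467 bases on the minus strand of scaffold 3 (64598 to 66064), was near the detection floor in most libraries at the cooler temperatures. It had a CPM of 0.361, 0.217, 1.78, 0.344, and 0.677 in replicates 1 to 5 at 20 °C and of 3.54, 4.08, 4.96, 5.82, and 5.28 at 25 °C. Every 25 °C library was above every 20 °C library, of which replicate 3 stood highest. The 20 °C values rest on 2 to 17 fragments a library, so the fold is known only roughly. Without replicate 3 at 20 °C the log2 fold change was 3.46. The log2 fold change was 2.89 ± 0.37, a 7.40-fold rise (edgeR adjusted p = 0.000172, n = 5 each). Here and below, ± on a log2 fold change is an approximate SE, the fold change divided by the square root of its F statistic. For genes with few fragments it is rough. In the 15 °C libraries the CPM was 0 to 0.596. The change from 15 to 20 °C was 1.304 ± 0.66 on the log2 scale and did not pass the test (edgeR adjusted p = 0.194). The difference between the warm and cold steps, tested directly, was 1.58 ± 0.998 and did not pass either (edgeR adjusted p = 0.453). The neighbours of this model on either side, at 46148 to 52844 and 72397 to 82792, had log2 fold changes of -0.38 ± 0.20 and 0.52 ± 0.18, and neither passed.

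NEMVEDRAFT_v1g110126.EDO39623, a model of 3 exons on the minus strand of scaffold 98 (347985 to 349754), rose from a steadier level. Its CPM was 2.68, 2.94, 2.83, 3.44, and 2.65 at 20 °C and 7.75, 10.8, 9.72, 9.34, and 7.02 at 25 °C. The groups were well apart, and the 20 °C libraries lay within a narrow range. The log2 fold change was 1.60 ± 0.22, a 3.04-fold rise (edgeR adjusted p = 0.000221, n = 5 each). It had also risen from 15 to 20 °C, by 1.19 ± 0.29 (edgeR adjusted p = 0.00723), so its mean CPM went from 1.11 to 2.91 to 8.92. The difference between the steps was 0.41 ± 0.45 and did not pass the test (edgeR adjusted p = 0.711). The next model along, on the same strand at 351778 to 358062, rose as well, by 1.31 ± 0.14 (edgeR adjusted p = 2.4e-05), and whether both are parts of 1 transcript was not tested.

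NEMVEDRAFT_v1g211382.EDO37610, a single-exon model of 1761 bases on the minus strand of scaffold 137 (109643 to 111403), had the larger of the 2 falls. Its CPM was 2.27, 2.17, 2.20, 3.71, and 2.40 at 20 °C and 0.0907, 0.240, 0.405, 0.441, and 0.258 at 25 °C. The 25 °C values rest on 2 to 5 fragments a library, so the fold is known only roughly although the groups are far apart. The log2 fold change was -3.27 ± 0.31, or 9.62-fold lower (edgeR adjusted p = 9.4e-06, n = 5 each). The level had already been falling with temperature, with a CPM of 8.82 to 15.5 at 15 °C and a change from 15 to 20 °C of -2.15 ± 0.20. The difference between the steps was -1.12 ± 0.44 and did not pass the test (edgeR adjusted p = 0.167). The neighbouring models on either side, both on the opposite strand, changed by -0.07 ± 0.12 and 0.11 ± 0.14 and did not pass the test.

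NEMVEDRAFT_v1g61309.EDO48146, a model of 11 exons on the plus strand of scaffold 9 (1740307 to 1750194), fell at the warm step, while its change at the cold step did not pass the test. Its CPM was 2.22, 4.35, 6.08, 4.68, and 3.32 at 20 °C and 0.227, 1.20, 0.608, 0.176, and 0.580 at 25 °C, from 2 to 10 fragments a library. The lowest 20 °C library was above the highest 25 °C library. The log2 fold change was -3.003 ± 0.42, or 8.02-fold lower (edgeR adjusted p = 0.000546, n = 5 each). From 15 to 20 °C its change was -0.18 ± 0.33 (edgeR adjusted p = 0.763), and the difference between the steps, tested directly, was -2.82 ± 0.63 (edgeR adjusted p = 0.0103). Its start overlaps the end of another model on the same strand (1738135 to 1740402), and reads in the overlap may belong to either. That model fell by 3.77 ± 0.76 on the log2 scale and the next one downstream, at 1769463 to 1790624, by 2.07 ± 0.34.

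**Figure D3:**
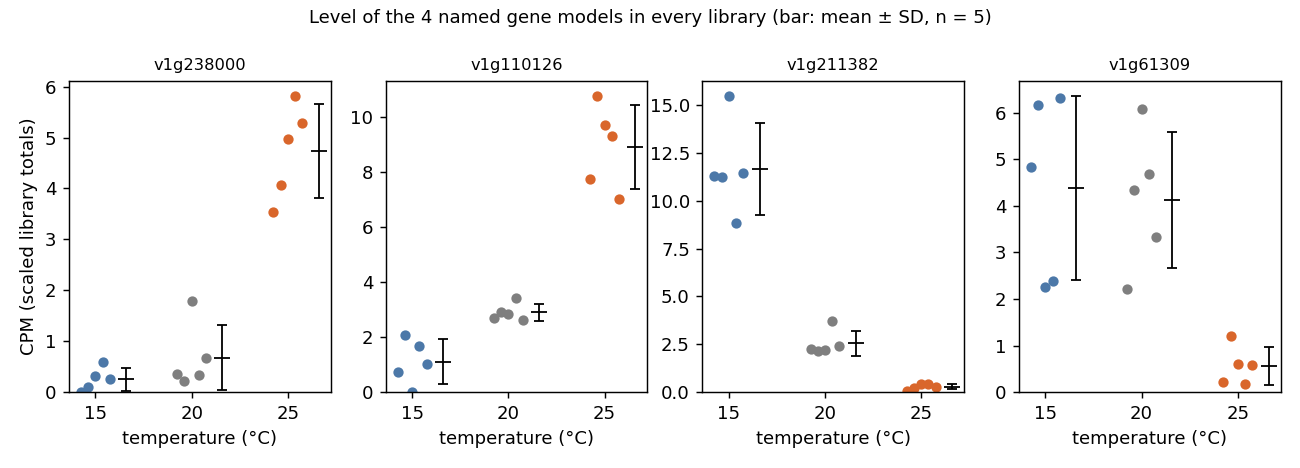
CPM of the 4 named gene models (vertical axis, linear from 0, a scale of its own for each) in the 5 libraries at each of 15, 20, and 25 °C, with the mean and SD beside the points. The models v1g238000 and v1g110126 are higher in every 25 °C library than in any 20 °C library, and v1g211382 and v1g61309 are lower.

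Changes were not confined to scarce transcripts. Of the genes averaging 8 or more in log2 CPM, 21 of the 476 tested rose (4.41%) and 23 fell (4.83%), against 1.14 and 2.54% of all genes tested. Changes of a given size are easier to call at high counts, so these shares do not show that abundant genes changed more. The following loci are given by position because their identifiers carry no name, and they were chosen after their values were seen. The most abundant changed locus was an assembled (TACO) transcript of 6 exons on the minus strand of scaffold 47 (194478 to 205626). It had a CPM of 6647, 5868, 8623, 6674, and 7636 at 20 °C and of 1754, 4510, 2207, 2821, and 2484 at 25 °C, a log2 fold change of -1.36 ± 0.24 (edgeR adjusted p = 0.003). The groups did not overlap, but replicate 2 at 25 °C was well above the other 25 °C libraries. The next most abundant, on scaffold 2513 (34 to 10101, minus strand), had its highest 25 °C value in the same library, with a CPM of 1227, 3749, 1586, 2017, and 1630 at 25 °C against 4386, 3948, 5557, 4259, and 5552 at 20 °C. Its log2 fold change was -1.22 ± 0.28 (edgeR adjusted p = 0.0197). Both loci ranged widely at 15 °C, from 3708 to 9473 and from 2492 to 6358 CPM, and whether they are near-identical copies that share reads was not tested.

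The largest fall among the abundant genes was at an assembled transcript with no matching JGI model, on the minus strand of scaffold 49 (726038 to 738559). Its CPM was 596, 1412, 2192, 1825, and 1316 at 20 °C and 245, 238, 471, 251, and 279 at 25 °C. Replicate 1 was the lowest of the 20 °C libraries and replicate 3 the highest of the 25 °C ones, with no overlap. The log2 fold change was -2.31 ± 0.34 (edgeR adjusted p = 0.00144, n = 5 each). A very large model of 193 exons on the plus strand of scaffold 70 (195410 to 300344), with 31797 bases of exon, fell from 1321, 861, 2012, 1834, and 1643 CPM to 383, 718, 544, 421, and 471 CPM. Its log2 fold change was -1.60 ± 0.20 (edgeR adjusted p = 0.00017), and its 15 °C libraries, at 1460 to 2005 CPM, lay within the range of those at 20 °C.

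A different course was seen at a JGI model of 3 exons on the plus strand of scaffold 18 (976820 to 977949), where the level was highest at 20 °C. The CPM was 585 to 797 at 15 °C, 2001, 2273, 3109, 1561, and 2849 at 20 °C, and 1731, 889, 942, 828, and 1115 at 25 °C. Replicate 1 at 25 °C was above replicate 4 at 20 °C, so these groups overlapped. The log2 change was 1.84 from 15 to 20 °C and -1.10 ± 0.20 from 20 to 25 °C (edgeR adjusted p = 3.8e-06 and 0.00377), and the difference between the steps passed the test (edgeR adjusted p = 1.42e-05).

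The abundant risers given here moved by less than the falling loci above, which were chosen after their values were seen. Other abundant fallers moved by less as well, with log2 fold changes of -0.65 ± 0.16 on scaffold 166 and -0.49 ± 0.13 on scaffold 60. On the minus strand of scaffold 121 (552483 to 555371), a JGI model of 6 exons had a CPM of 206, 152, 381, 403, and 294 at 20 °C and of 794, 530, 541, 468, and 698 at 25 °C. No libraries overlapped, and the log2 fold change was 1.08 ± 0.24 (edgeR adjusted p = 0.016). An assembled transcript of 6 exons on scaffold 127 (547178 to 554272, minus strand) went from 332, 380, 542, 513, and 436 CPM to 1141, 768, 825, 758, and 936 CPM, a change of 1.01 ± 0.15 (edgeR adjusted p = 0.0005). Its level at 15 °C, 376 to 487 CPM, was within the range at 20 °C. The most abundant riser, on scaffold 364 (1001 to 6399, minus strand), went from 770, 972, 1110, 1016, and 955 CPM to 1357, 1341, 1261, 1432, and 1163 CPM. That is a change of only 0.44 ± 0.12, yet no libraries overlapped (edgeR adjusted p = 0.0378).

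The warm step was set beside the cold step from 15 to 20 °C. The 20 °C libraries enter both, so the steps are not independent, and the members' values are given side by side only. The risers had a median log2 fold change of 0.61 from 20 to 25 °C and of 0.12 from 15 to 20 °C, and their median CPM was 14.1, 15.2, and 22.03 at 15, 20, and 25 °C. The fallers had medians of -0.77 and -0.07, and a median CPM of 24.6, 23.6, and 13.8. From 15 to 20 °C the quartiles of the fallers were -0.34 and 0.32, on both sides of 0. Over all genes tested the median CPM was 11.3, 11.4, and 11.4. Tested gene by gene across the whole table, the warm step differed from the cold step in 1059 genes (5.94% of those tested, edgeR with Benjamini-Hochberg adjustment), with the warm step the more negative in 769 and the more positive in 290. Without replicate 4 of the 20 °C group the count was 693. The 1059 genes held 159 of the 452 fallers (35.2%) and 28 of the 203 risers (13.8%). The fallers and risers were chosen by the warm step, which is part of that test, so these shares are a description. From 15 to 20 °C, 160 of the fallers passed the test, 86 of them higher and 74 lower at 20 °C. So did 54 of the risers (47 higher and 7 lower), against 3345 of the 17818 genes tested.

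Switching on or off could not be seen among genes with enough counts to be tested. There were 586 gene models without a fragment in any 25 °C library that had some at 20 °C, but only 3 of them had counts in all 5 libraries at 20 °C. Their summed counts at 20 °C did not exceed 14. In the other direction there were 370 models, 2 of them with counts in all 5 libraries at 25 °C, and a highest summed count of 18. None of these was among the genes tested, so at this depth they were not distinguished from sampling.

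The calls were counted by kind of gene model, as a description without a test of the difference. The deposited models combine JGI predictions with transcripts assembled by TACO. Of 11852 JGI models tested, 165 rose (1.39%) and 290 fell (2.45%). Of 5966 assembled models, 38 rose (0.637%) and 162 fell (2.72%), a share lower that was close to that of the JGI models and a share higher that was smaller. With the offset on exon length the JGI models gave 201 rises and 232 falls and the assembled models 71 and 123. With 1 of the 10 libraries left out, the JGI models gave 91 to 138 rises and 183 to 259 falls, and the assembled models 17 to 36 and 100 to 160, with the fewest rises in both without replicate 5 at 25 °C. The imbalance was widest in the 1886 assembled models without a matching JGI model, of which 6 rose (0.318%) and 56 fell (2.97%). Leaving out any 1 of the 10 libraries, the risers in this class numbered 3 to 6 and the fallers 29 to 59. The counts were 10 and 45 with the offset on exon length, 16 and 47 with the offset and the replicate block, 14 and 74 in a fit of only the 10 libraries, and 13 and 88 with DESeq2. This class had a median log2 CPM of 2.48, against 3.54 over all genes tested, and the part of this in the counts was not tested.

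Calls were more frequent among abundant genes, in both directions. By level, from the lowest to the highest quartile of average log2 CPM, 1.64, 1.998, 2.56, and 3.95% of genes fell and 0.494, 1.17, 1.26, and 1.64% rose. Both shares went up with the level. A change of a given size is easier to call at a higher count, and the part of this in the shares was not tested. By exon length, 160 of 5457 models with 2000 bases or more fell (2.93%) and 55 rose (1.01%), against 57 (2.39%) and 25 (1.05%) of 2384 models under 500 bases. The median length from start to end was 5317 bases in the fallers, 3568 in the risers, and 4541 in all genes tested. With the offset on exon length, the models of 2000 bases or more gave 119 falls and 88 rises (57.5% of the calls lower, from 74.4%). Those under 500 bases gave 41 and 33 (55.4% lower, from 69.5%). Both classes moved by a like amount, but the offset also shifted genes in general, so the part of length in this was not tested. Of 2628 single-exon models, 36 were higher (1.37%) and 68 lower (2.59%). These counts moved with single libraries. With 1 of the 10 left out, the single-exon models gave 21 to 32 rises and 31 to 75 falls, the models of 2000 bases or more 23 to 47 and 98 to 154, and those under 500 bases 15 to 21 and 36 to 55. The fewest falls were without replicate 4 at 20 °C in all 3 classes, and the fewest rises without replicate 5 at 20 °C (single-exon and short models) or at 25 °C (single-exon and long models).

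Fallers lay next to fallers on the scaffolds, and risers next to risers, more often than genes in general were called that way. Of the 806 places directly beside a falling gene that held a tested model, 110 held another falling gene (13.65%), where 2.54% of all genes tested fell. For the risers it was 20 of 378 places (5.29%), where 1.14% of all genes rose. A pair is counted from both sides, so the 110 places were 55 pairs and the 20 places 10 pairs. The share among the fallers declined with distance, to 8.08% at 2 models away, 4.38% at 3, 3.23% at 5, and 3.67% at 10. Among the risers it was 3.37% at 2, 1.74% at 3, 2.58% at 5, and 0.781% at 10. Neighbours on the same strand can be pieces of 1 transcription unit or recent duplicates that share reads, and neighbours that overlap can share reads as well. Among neighbours that did not overlap and lay on opposite strands, 30 of 351 places beside a falling gene (8.55%) held another one. Beside a rising gene, 8 of 177 such places (4.52%) held another riser. These were 15 pairs of fallers and 4 pairs of risers. In all, 92 fallers (20.4%) and 20 risers (9.85%) had an adjoining gene that moved the same way. A gene can adjoin a model on either side, so these shares are not to be set against the 2.54 and 1.14%. Among overlapping models on opposite strands, whose reads cannot be told apart where the counting ignored strand, 42 of 702 tested pairs held a called gene and 1 pair held 2, both higher. Of the 1576 tested models that overlap another on the opposite strand, 1.02% rose and 2.28% fell, near the shares of all genes tested.

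**Figure D4:**
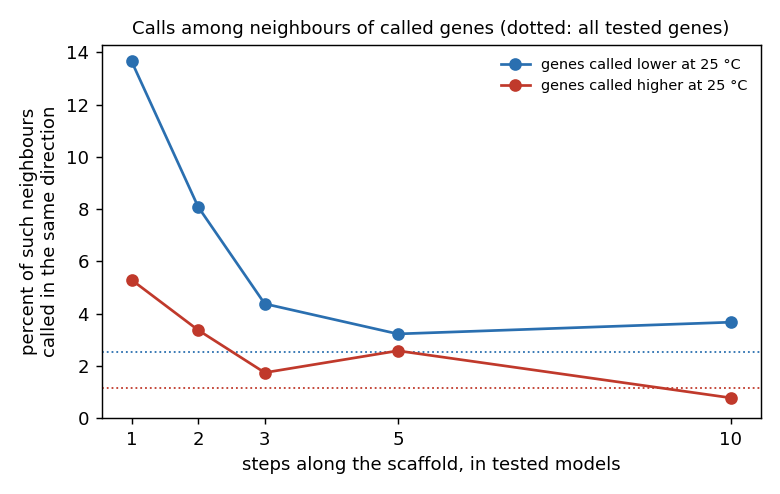
Percent of tested models at 1, 2, 3, 5, and 10 steps along the scaffold from a called gene (horizontal axis) that were called in the same direction (vertical axis), for fallers in blue and risers in red, with dotted lines at the percent of all tested genes called (2.54 and 1.14%). The fallers' share is 13.65% at 1 step and 3.67% at 10 steps.

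Runs of at least 3 adjoining tested models that all changed the same way numbered 12 for the fallers, with 42 genes, and 0 for the risers. The fallers were the larger set, 452 genes against 203, and more runs can form in a larger set. The run with the largest fall in summed level was on scaffold 48 (845854 to 881238) and held 3 models on both strands, 2 of them assembled. Their summed CPM was 1647, 1374, 1625, 1495, and 2013 at 20 °C and 657, 574, 590, 552, and 681 at 25 °C, 2.67 times higher at 20 °C. The log2 fold changes of its models were -1.07 ± 0.13, -1.38 ± 0.18, and -1.49 ± 0.16, and the tested models just outside it changed by -0.08 ± 0.21 and -0.21 ± 0.13. The model after these fell again, by 1.29 ± 0.33. A run on scaffold 209 (219912 to 243912) held 3 JGI models on both strands with log2 fold changes from -1.28 to -1.16. Its summed CPM was 1867, 773, 1200, 1286, and 987 at 20 °C and 610, 438, 476, 598, and 478 at 25 °C, and at 15 °C it reached from 995 to 2304.

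On scaffold 439 (132672 to 158231), 4 JGI models, 3 on the minus and 1 on the plus strand, fell by nearly the same amount, with log2 fold changes between -1.21 and -1.10. Their summed CPM was 215, 126, 169, 152, and 192 at 20 °C and 96.1, 53.8, 68.4, 76.4, and 101 at 25 °C. The 15 °C libraries, at 106 to 163, overlapped those at 20 °C, and the last tested model before the run changed by -0.06 ± 0.11. Scaffold 269 held 2 such runs, of 4 models on the plus strand (74508 to 109455) and of 5 models on both strands (126367 to 174475). The longer one had log2 fold changes from -1.32 to -0.69 and a summed CPM of 170, 171, 161, 185, and 165 at 20 °C and of 119, 67.1, 68.2, 106, and 133 at 25 °C. The 20 °C libraries were close together there, and the 25 °C libraries were spread more widely and all lower. The run on scaffold 9 (1672637 to 1790624) was of 4 plus-strand models, among them NEMVEDRAFT_v1g61309.EDO48146 and the model that overlaps it.

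**Figure D5:**
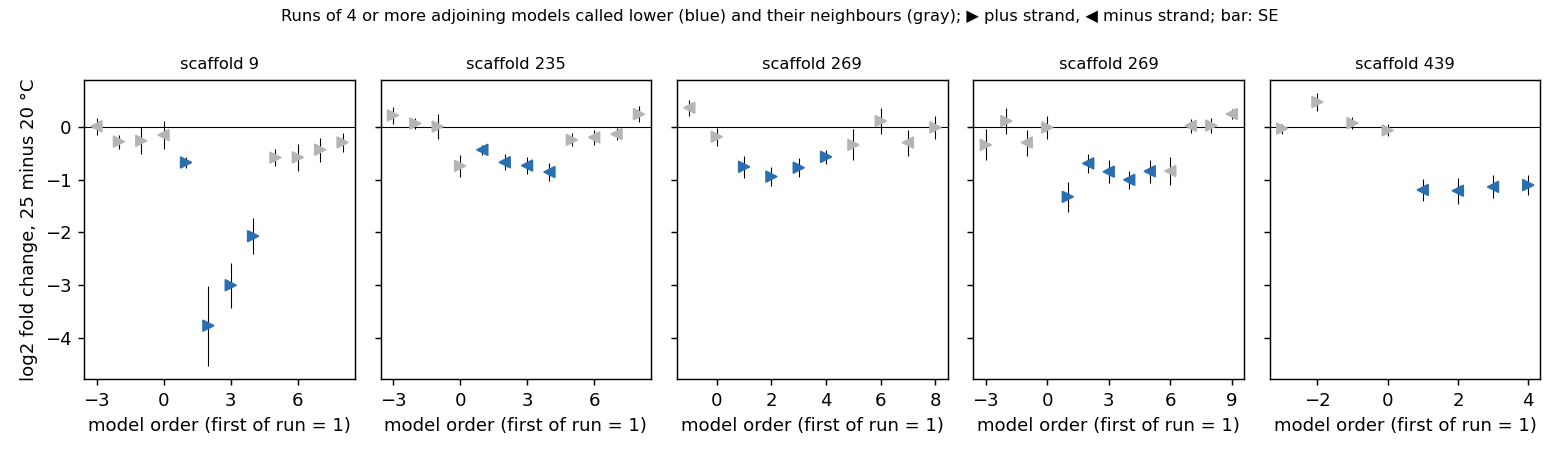
Log2 fold change at 25 °C minus 20 °C with its approximate SE (vertical axis) for the tested models in scaffold order (horizontal axis, the first of the run being 1). Shown are the 5 runs of 4 or more adjoining models called lower, in blue, and up to 4 models on either side, in gray. Triangles point right for the plus and left for the minus strand. The 4 blue models on scaffold 439 lie between -1.21 and -1.10, and the last model before them is at -0.06.

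Within each temperature the libraries varied to a similar extent. The median SD of log2 CPM over the 5 libraries was 0.185 at 20 °C and 0.175 at 25 °C over all genes tested, and it was larger at 25 °C in 45.7% of the genes. The fallers were the more variable set, with medians of 0.217 and 0.202, and the risers had 0.180 and 0.167. No library alone was the extreme one for most called genes. Replicate 1 at 25 °C was the highest library for 59 of the 203 risers, and replicate 4 at 20 °C for 106 of the 452 fallers. At the other end, replicate 2 at 25 °C was the lowest library for 130 fallers and replicate 1 at 20 °C for 65 risers. In 1 faller the lowest value was in a 20 °C library, replicate 2.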

How the data were processed

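The authors deposited raw fragment counts per gene model, 2 columns a library (taken as sequencing runs and added up), and the gene models with their positions on scaffolds (build not given in the sources used here). The submitters' processing notes name Trimmomatic 0.38, HISAT2 2.1.0, StringTie 2.0, and featureCounts, and the strand setting of the counting is not stated. All 15 libraries were fitted in R 4.3.3 with edgeR 4.0.16 (TMM, filterByExpr, robust quasi-likelihood F-test), and 17818 of 27527 models passed the filter. The 9709 models left out had too few counts. Genes were called at a Benjamini-Hochberg adjusted p under 0.05. Summary values per library were tested by exact permutation in Python 3.11.15. CPM used library totals scaled by the TMM factors. Alternatives used DESeq2 1.42.0, limma-voom (limma 3.58.1), other scalings and filters, an exon-length offset, a replicate block, each run alone, thinned libraries, and each library left out. The 2 largest rises and 2 largest falls were named among called genes that averaged 0 or more in log2 CPM and whose libraries did not overlap. The comparison, rules, and lists were chosen with earlier results of these data known. The fixed gene lists and cell type markers were not used here, since 0 identifiers matched a name. Replicate pairs differed by a chi-square per gene of 6.22 to 35.4, above sampling noise, so each library counted once. The fit was also run on simulated counts, with the same spread set for every gene and changes planted only in well-counted genes. Its outcome is not given here, and it does not bear on genes with few fragments.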

Additional observations from a re-analysis of the deposited data

Results flagged for a closer look

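With 5 libraries a group, a library was set apart when its gap to the nearest other library exceeded a share of 0.71 of the group's range. Of 20 groups of values examined, 2 had such a library, where chance gives about 1 in 20. The share of counts held by the 452 genes called lower was 4.97% in replicate 2 at 20 °C, the lowest of its group, with a gap of 0.734 of the range, and still above every 25 °C library. The log2 CPM of NEMVEDRAFT_v1g211382.EDO37610 (with 0.1 CPM added) was 1.93 in replicate 4 at 20 °C, the highest of its group, with a gap of 0.817 of the range. Without that library its log2 fold change remained past the threshold.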

How the results depend on the processing

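The count of 655 called genes was 419 in run 2 alone and 177 when a change of 1 or more on the log2 scale was required, and it ran from 399 to 836 with each of the 15 libraries left out in turn. The 203 higher genes became 318 with DESeq2 and 33 with that minimum change, and 109 to 277 with a library left out. The 452 lower genes became 255 in run 2 alone and 144 with the minimum change, and 284 to 559 with a library left out. Genes whose steps differed numbered 693 to 1221 with a library left out. The cause of these shifts was not tested, except that fewer genes (15374) passed the filter in run 2 alone and that the minimum change removes genes by construction. No called gene changed sign in any fit, which was unlikely for genes chosen in these same libraries. The named genes stayed past the threshold under every alternative that gave them a value (28 or 29 each), with log2 fold changes of 2.69 to 3.46 for v1g238000, 1.53 to 1.68 for v1g110126, -3.49 to -2.91 for v1g211382, and -3.37 to -2.71 for v1g61309. Same-numbered libraries at 20 and 25 °C correlated in their deviations at -0.07 to 0.37 (mean 0.10, against -0.03 over the 20 other pairs, with 3 of 5 over 0.1 and none best with its own number). Not every pair correlated and no label pairs them, so they were not treated as paired, and with a replicate block 740 genes were called. No scaling beyond the library total (506 genes) and relative log expression factors (631) were chosen after seeing the data. The counts per fixed gene list were not run. Depth limits the folds of genes with few fragments at either temperature.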
